A study of Homo sapiens with 8 samples.

Results

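The genes studied here carry glucose into the cell and turn it into fructose bisphosphate. They are 10 genes named by the step they serve, SLC2A1, SLC2A3, HK1, HK2, HK3, ADPGK, GPI, PFKL, PFKM and PFKP, among 62639 annotated genes of the count table. They were taken by name, but earlier results of these data were known when they were chosen. The study had already named SLC2A1 and HK2 among the genes lower after knockdown. A member's count is the sum over all transcripts that GENCODE version 44 assigns to the gene, which gave 164 transcripts in the table, 45 of them with a count. MOLM-13, a human acute myeloid leukemia cell line, carried a doxycycline-inducible shRNA delivered by lentivirus, directed against PTBP1 (shPTBP1, labelled PTBP1 KD) or scrambled (shControl, labelled WT). There were 4 biological replicates of each, and all 8 libraries came from cells kept for 9 days in doxycycline. The constructs in both arms also express mCherry, and a truncated LNGFR marker after doxycycline. Because the study describes a single shRNA per arm, an effect of PTBP1 loss cannot be told apart from another effect of that shRNA. Total RNA was converted to cDNA and read on a nanopore instrument, and these bulk measurements cannot tell fewer cells of a kind from less RNA per cell.

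Glucose crosses the plasma membrane through facilitative transporters of the SLC2A family, down its gradient. Inside the cell hexokinases phosphorylate it at the cost of ATP, which traps it, while ADPGK performs the same reaction with ADP. GPI converts glucose 6-phosphate to fructose 6-phosphate, and the phosphofructokinases add a second phosphate in the committed and strongly regulated step of glycolysis. Leukemia cells, like many dividing cells, are known for high glucose use.

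The libraries held between 1528449 and 1613342 counts. PTBP1, the RNA-binding splicing regulator that the shRNA targets, had 10, 15, 13 and 23 counts in shPTBP1 replicates 1 to 4 and 65, 90, 64 and 78 in shControl. Its level fell by 2.26 on the log2 scale (SE 0.22, edgeR's quasi-likelihood test, adjusted p = 7.18e-05). PTBP2, the paralog that PTBP1 is known to repress, had 185 to 199 counts in the shPTBP1 libraries and 1 to 4 in shControl. Of 14 myeloid leukemia markers all had counts, although SPI1 had a single count in 1 library. CD86, MEIS1 and FLT3 were low as well, at no more than 1.32, 3.16 and 7.37 normalized CPM in any library. The summed marker level was 1359 to 1498 normalized CPM after shPTBP1 and 1252 to 1383 in shControl. CD68 and FUT4 were called higher and CSF1R and CD4 lower, and their part in the results on glycolysis was not tested. CD3D, CD3E, CD3G, MS4A1, HBB and ALAS2 were at 0 in all libraries, and the erythroid and B cell sums reached at most 0.667 and 1.33 normalized CPM. The summed epithelial markers stood at 1.27 to 4.48 normalized CPM after shPTBP1 and at 3.82 to 7.99 in shControl, and the stromal markers at 10.1 to 14.5 and 8.98 to 11.1.

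To ask whether the genes of glucose entry and upper glycolysis were expressed at another level after PTBP1 knockdown, gene counts were compared by edgeR's quasi-likelihood test. Of the 10 members, 6 were called lower and 0 higher (Benjamini-Hochberg adjusted p under 0.05 over 7597 genes tested). These were SLC2A1, HK1, HK2, ADPGK, GPI and PFKL. SLC2A3 and PFKP passed the filter on low counts without being called. HK3 and PFKM were too sparse to be tested. In the background, 242 of 7597 genes (3.19%) were called lower and 179 (2.36%) higher. This share depends on depth. With a mean of at least 50 counts required, 409 of 3683 genes were called in both directions together, against 421 of 7597 here. The 8 tested members had log2 fold changes of -0.84 to -0.33 with a median of -0.51, beside a median of -0.0001 over all genes tested. At an unadjusted p under 0.05, 7 members were lower and 0 higher, and DESeq2 and limma-voom likewise called 6 lower and 0 higher. In 6 members, SLC2A1, SLC2A3, HK2, ADPGK, GPI and PFKL, every shPTBP1 library lay below every shControl library, as in 484 of 7597 genes tested (6.37%). The number of calls depended on single libraries. It was 3 without shPTBP1 replicate 2, 2 without shPTBP1 replicate 3 and 3 without shPTBP1 replicate 4, and 7 without shPTBP1 replicate 1. Calls over all genes, in both directions, moved as well in these fits, from 421 with all libraries to 210, 184, 236 and 358.

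**Figure D1:**
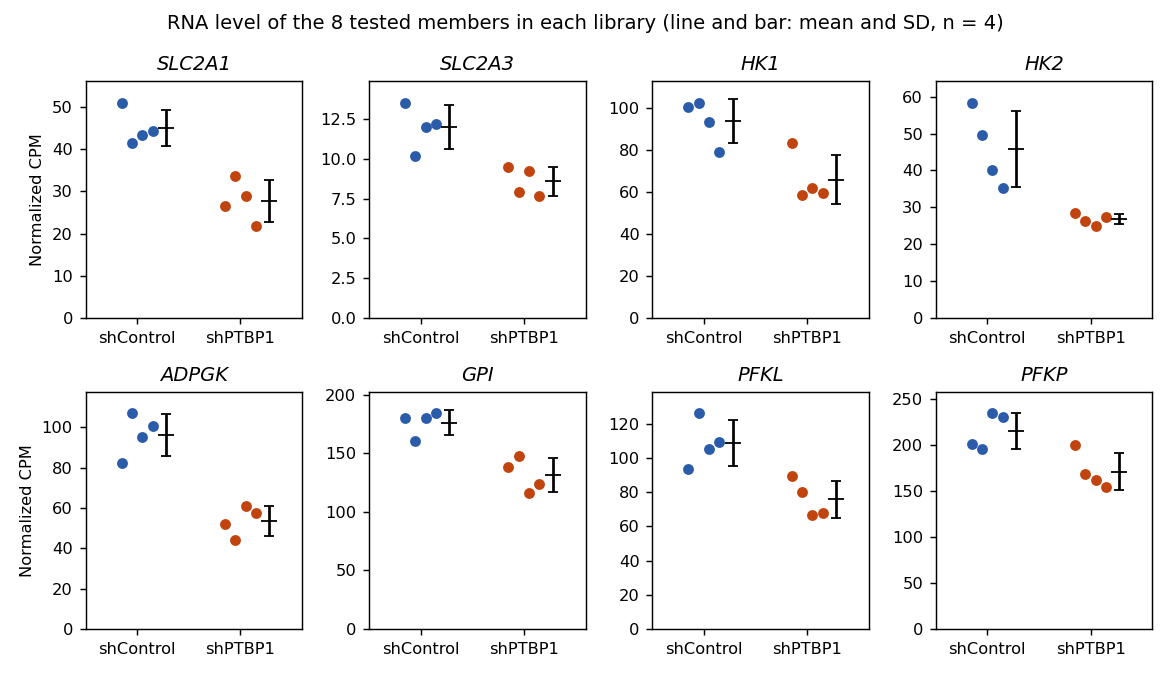
Normalized CPM (counts per 1000000 after TMM scaling, linear axis from 0) of the 8 tested members. Each point is a library, blue for shControl and red for shPTBP1, and the line and bar beside them give the mean and SD (n = 4). In HK1 and PFKP the groups overlap, with shPTBP1 replicate 1 at 83.5 and 199.9, and in the other 6 members they do not.

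Of the transporter genes among the members, SLC2A1 fell. It encodes GLUT1, the widespread basal glucose transporter, and lies at chr1:42925353-42958893 on the minus strand (GRCh38). Its normalized CPM, the count per 1000000 counts after TMM scaling, was 26.6, 33.7, 29.0 and 21.8 in shPTBP1 replicates 1 to 4. In shControl it was 51.0, 41.4, 43.4 and 44.3. The highest shPTBP1 library thus stayed below the lowest shControl library. The mean was 27.8 ± 4.97 after shPTBP1 and 45.0 ± 4.18 in shControl (SD, n = 4), and the log2 fold change of -0.70 (SE 0.15, 95% interval -1.02 to -0.38) had an adjusted p of 0.0161 by edgeR. With any 1 library left out SLC2A1 was still called, with adjusted p values of 0.0178 to 0.0470.

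SLC2A3 encodes GLUT3, a high-affinity transporter best known from neurons and also present in white blood cells, at chr12:7919230-8019007 on the minus strand. It had 15, 12, 14 and 12 counts after shPTBP1 and 22, 16, 18 and 19 in shControl. Every shPTBP1 library was below every shControl library on the normalized scale, at 7.68 to 9.49 against 10.2 to 13.5 normalized CPM. The log2 fold change was -0.48 (SE 0.23, 95% interval -0.98 to 0.02), and it was not called by edgeR (adjusted p = 0.286). SLC2A14, a near-identical neighbour with which reads can be confused, had 3 counts in the shPTBP1 libraries together and 7 in the shControl libraries. Reads of low mapping quality were dropped before counting, so these counts do not bound how many SLC2A3 reads were lost or misassigned.

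Both hexokinases with measurable RNA fell. HK1, the widespread mitochondria-bound hexokinase, lies at chr10:69269984-69401884 on the plus strand. Its normalized CPM was 83.5, 58.8, 61.9 and 59.5 after shPTBP1 and 100.2, 102, 93.4 and 78.9 in shControl. Only shPTBP1 replicate 1 reached the range of shControl, where it lay above replicate 4. By edgeR its level changed by -0.51 on the log2 scale (SE 0.13, adjusted p = 0.0347). It grew to -0.64 without that library (adjusted p = 0.00995). The call was lost when any other library but shControl replicate 4 was left out. The adjusted p was then 0.110 without shPTBP1 replicate 2, 0.113 without replicate 3 and 0.110 without replicate 4. Without shControl replicates 1, 2 and 3 it was 0.0805, 0.0916 and 0.0725. Over all 8 fits with a library left out the log2 fold change of HK1 lay between -0.64 and -0.46.

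HK2 is the inducible hexokinase that many tumours express strongly, at chr2:74834127-74893359 on the plus strand. Its normalized CPM was 28.5, 26.4, 25.0 and 27.5 after shPTBP1, with an SD of 1.49. In shControl it was 58.4, 49.7, 40.0 and 35.3, with an SD of 10.3. The shPTBP1 libraries were therefore close together, while the shControl libraries were spread out above them. On the log2 scale HK2 changed by -0.77 (SE 0.16, 95% interval -1.13 to -0.42, edgeR adjusted p = 0.0168). The adjusted p was 0.0511 without shPTBP1 replicate 2 and 0.0599 without shPTBP1 replicate 3.

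HK2 has a pair of annotated starts, whose RefSeq windows (GRCh38.p14, plus strand, 250 bases before to 50 after the start) are shown because they are the 2 transcripts that carry all HK2 counts. Capitals mark CACGTG, the core of an E-box, ACGTG, the core of a hypoxia response element, which lies within CACGTG, and TGTGGT, a core that RUNX factors can bind. Both strands were searched, so that CACGT and ACCACA are matches on the other strand. The first window, chr2:74833877-74834176, belongs to HK2-201, and the second, chr2:74834920-74835219, to HK2-202.
HK2-201 start: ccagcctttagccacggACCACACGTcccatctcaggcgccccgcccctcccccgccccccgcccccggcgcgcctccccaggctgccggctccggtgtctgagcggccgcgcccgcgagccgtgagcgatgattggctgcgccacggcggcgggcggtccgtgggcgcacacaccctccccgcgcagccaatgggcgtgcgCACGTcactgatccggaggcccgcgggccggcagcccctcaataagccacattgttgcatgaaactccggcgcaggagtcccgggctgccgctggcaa
HK2-202 start: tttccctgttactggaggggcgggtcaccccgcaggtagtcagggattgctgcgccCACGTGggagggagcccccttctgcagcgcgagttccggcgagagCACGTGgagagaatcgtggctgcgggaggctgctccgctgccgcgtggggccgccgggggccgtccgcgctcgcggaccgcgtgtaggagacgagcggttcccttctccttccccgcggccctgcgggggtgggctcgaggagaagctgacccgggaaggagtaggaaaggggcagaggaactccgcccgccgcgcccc

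The HK2-201 window held 2 matches to ACGTG and 1 to TGTGGT, and its first capital run holds 1 of each in overlap. The HK2-202 window held 2 matches to CACGTG, each of which contains ACGTG on both strands. Of 35116 promoter windows, 7.26% held CACGTG, 21.4% held ACGTG and 13.1% held TGTGGT. Of the 9 members with a window, 1 held CACGTG, 4 held ACGTG and 4 held TGTGGT in at least 1 window, and HK1, HK2, PFKM and PFKP have more than 1. SLC2A1 and ADPGK held none of these letters in their windows. Most HK2 counts were assigned to HK2-201, which held 95.1% ± 1.97 of the gene's counts after shPTBP1 and 96.9% ± 2.16 in shControl (SD, n = 4). The difference did not pass an exact permutation test (p = 0.286). Use of the starts themselves was not measured.

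HK3, the hexokinase of mature myeloid cells (chr5:176880869-176899346, minus strand), had 3, 0, 2 and 1 counts after shPTBP1 and 0, 1, 2 and 2 in shControl. A count of 0 allows up to 3 counts, or 1.84 to 1.98 normalized CPM in the 2 libraries concerned. A difference in HK3 was not detectable at this depth.

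ADPGK fell by 0.84 on the log2 scale, close to HK2 and SLC2A1. The order of these genes was not tested and changed with single libraries, since HK2 had -0.88 and ADPGK -0.82 without shControl replicate 4, and SLC2A1 -0.80 and ADPGK -0.76 without shPTBP1 replicate 2. ADPGK encodes an ADP-dependent glucokinase of the endoplasmic reticulum and lies at chr15:72751294-72785846 on the minus strand. Its normalized CPM was 51.9, 44.3, 61.2 and 57.6 after shPTBP1 and 82.3, 107, 95.4 and 100.7 in shControl. The groups were more than 20 normalized CPM apart at their closest. The mean level was 53.8 ± 7.40 after shPTBP1 and 96.4 ± 10.5 in shControl (SD, n = 4). The log2 fold change was -0.84 (SE 0.12, 95% interval -1.10 to -0.58), with an edgeR adjusted p of 0.00121. Without any 1 library the log2 fold change stayed between -0.91 and -0.76, and ADPGK was called in all 8 of these fits.

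GPI, the isomerase between both phosphorylation steps, lies at chr19:34359480-34402413 on the plus strand. It had 219, 224, 176 and 193 counts after shPTBP1 and 293, 252, 270 and 287 in shControl. On the normalized scale these were 139, 148, 116 and 124 CPM against 180.0, 160.5, 180.1 and 184 CPM, without overlap. GPI changed by -0.42 on the log2 scale (SE 0.09, edgeR adjusted p = 0.0152), a smaller change than those of SLC2A1, HK2 and ADPGK. The call was lost without shPTBP1 replicate 3 (adjusted p = 0.0585), without shPTBP1 replicate 4 (0.0544) and without shControl replicate 4 (0.0537). Its log2 fold change lay between -0.48 and -0.36 with any 1 library left out.

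Of the phosphofructokinases, which form tetramers of liver (PFKL), muscle (PFKM) and platelet (PFKP) subunits, PFKL fell. PFKL lies at chr21:44300051-44327376 on the plus strand. Its normalized CPM was 89.2, 79.9, 66.5 and 67.9 after shPTBP1 and 93.4, 126, 105 and 109 in shControl. The gap between shPTBP1 replicate 1 and shControl replicate 1 was narrow. On the log2 scale PFKL changed by -0.51 (SE 0.12, edgeR adjusted p = 0.0236). The call was lost without shPTBP1 replicate 2, 3 or 4 (adjusted p = 0.0561, 0.0887 and 0.0800) and without shControl replicate 2 or 4 (0.0648 and 0.0621). With any 1 library left out the log2 fold change of PFKL lay between -0.60 and -0.43.

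PFKP, at chr10:3066333-3137718 on the plus strand, was the most abundant member. Its normalized CPM was 199.9, 168.5, 162 and 155 after shPTBP1 and 201, 196, 235 and 230.3 in shControl. Replicate 1 of shPTBP1 lay among the shControl libraries, and the others lay below them. The log2 fold change was -0.33 (SE 0.09, 95% interval -0.53 to -0.13), just outside the threshold with an edgeR adjusted p of 0.0578. PFKP was called without shPTBP1 replicate 1 (log2 fold change -0.41, adjusted p = 0.0229), and also with no filter on low counts (0.0398) and with a mean of at least 50 counts required (0.0280). PFKM (chr12:48105139-48146404, plus strand) had 3 counts over all 8 libraries and was at 0 in 5 of them. A 0 allows up to 1.90 to 2.00 normalized CPM in these libraries, so that a difference was not detectable at this depth.

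**Figure D2:**
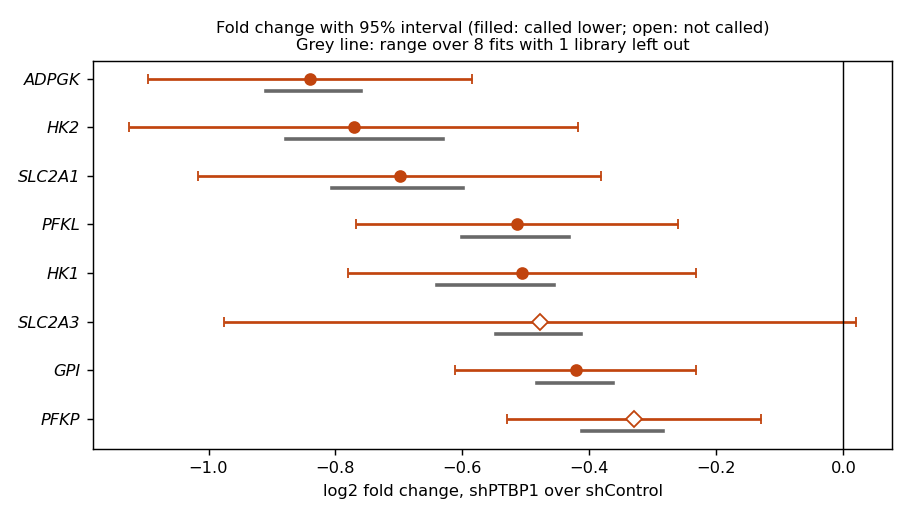
log2 fold change of the 8 tested members, shPTBP1 over shControl, with its 95% interval from edgeR. Filled circles were called lower and open diamonds were not, and the grey line below each is the range over 8 fits with 1 library left out. The estimates run from -0.84 for ADPGK to -0.33 for PFKP, and the interval of SLC2A3 alone reaches 0.

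Summed over the members that serve a step, with ADPGK counted apart from the hexokinases, all 5 sums were lower, and their groups did not overlap. The sum of SLC2A1 and SLC2A3 was 36.3 ± 5.13 normalized CPM after shPTBP1 and 57.0 ± 5.45 in shControl, a difference of -0.66 on the log2 scale. The hexokinase sum was 93.8 ± 13.5 against 140.4 ± 19.5, a difference of -0.58. The phosphofructokinase sum was 247 ± 30.1 against 324 ± 21.3 (SD, n = 4 for each), a difference of -0.40. ADPGK, which performs the hexokinase reaction with ADP, and GPI, which serves its step alone, differed by -0.85 and -0.43 on this scale. Each step had p = 0.0286 by the exact two-sided permutation test, also after adjustment over the 5 steps, which is the smallest that 4 libraries against 4 can give. The order of the steps was not tested, and without shPTBP1 replicate 1 the phosphofructokinases differed by -0.47 and GPI by -0.45. With 1 library left out the exact permutation p became 0.0571 for some sums. This held for the hexokinases when any library but shPTBP1 replicate 1 was left out. It held for the phosphofructokinases without any 1 shControl library, and for GPI without shControl replicate 4. The groups still did not overlap in these cases, so that 0.0571 does not mark a loss of separation.

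The shPTBP1 libraries differed in how many counts the members held. Library shPTBP1 replicate 1 held 995 member counts, and the other shPTBP1 libraries 808 to 860, while shControl libraries held 1208 to 1270. In shPTBP1 replicate 1, 6 of the 8 tested members were above their group mean on the log2 scale, most of all HK1 by 0.35, PFKL by 0.24 and PFKP by 0.23. SLC2A1 and ADPGK were below it, each by 0.04. In shControl the widest deviations were those of HK2, 0.37 above the group mean in replicate 1 and 0.34 below it in replicate 4.

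To compare members with each other, counts were divided by the length of each transcript. Whether these long-read counts grow with transcript length was not tested, and the order of members depends on the division. Without it, HK2 and SLC2A1 had means of 45.8 and 45.0 normalized CPM in shControl. On this scale of normalized CPM per kilobase PFKP was highest in shControl at 82.4 ± 7.44, followed by GPI at 45.6 ± 2.56. ADPGK at 37.5 ± 4.13 and PFKL at 37.3 ± 4.65 were within each other's spread. HK1 had 26.1 ± 2.96, SLC2A1 16.9 ± 1.75, HK2 8.16 ± 1.82 and SLC2A3 3.12 ± 0.36 (SD, n = 4). HK3 had 0.26 and PFKM 0.10 per kilobase, which do not differ beyond their spread. After shPTBP1 the levels per kilobase were 65.4 for PFKP, 33.6 for GPI, 26.1 for PFKL, 20.9 for ADPGK, 18.3 for HK1, 9.63 for SLC2A1, 4.79 for HK2 and 2.62 for SLC2A3. The range of ADPGK per kilobase, 17.3 to 24.0, then overlapped those of HK1, 16.4 to 23.2, and of PFKL, 22.8 to 30.7.

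To ask whether knockdown changed which paralog does a step, the share of each gene in its family's counts was compared. SLC2A1 held 73.7, 81.0, 75.9 and 73.9% of the transporter counts after shPTBP1 and 79.0, 80.2, 78.3 and 78.4% in shControl. HK1 held 70.1% ± 2.35 of the hexokinase counts after shPTBP1 and 67.0% ± 2.69 in shControl, and HK2 28.9% ± 2.95 and 32.4% ± 3.18. HK1 was thus the larger source of hexokinase RNA in all 8 libraries. PFKP held 69.3% ± 1.34 of the phosphofructokinase counts after shPTBP1 and 66.4% ± 3.75 in shControl, and PFKL 30.6% ± 1.23 and 33.5% ± 3.81 (SD, n = 4). HK3 held 0 to 1.67% of hexokinase counts in any library and PFKM 0 to 0.265% of phosphofructokinase counts. Where PFKM had no count, up to 0.588 to 0.865% would be allowed, and for HK3 up to 1.16% and 2.33% in the 2 libraries without a count. All 8 shares had overlapping groups, with adjusted p values of at least 0.267 by exact permutation tests. edgeR's diffSpliceDGE, with the paralogs as features, called 0 of 6, and 0 had an unadjusted p under 0.05 (adjusted p of at least 0.737). The SLC2A1 share was 4.52 percentage points lower without shPTBP1 replicate 2 (exact permutation test, unadjusted p = 0.0286), where the groups did not overlap. That library held the highest SLC2A1 share among the shPTBP1 libraries, 81.0%. With any other library left out, the unadjusted p by the same test was 0.2 to 0.314.

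**Figure D3:**
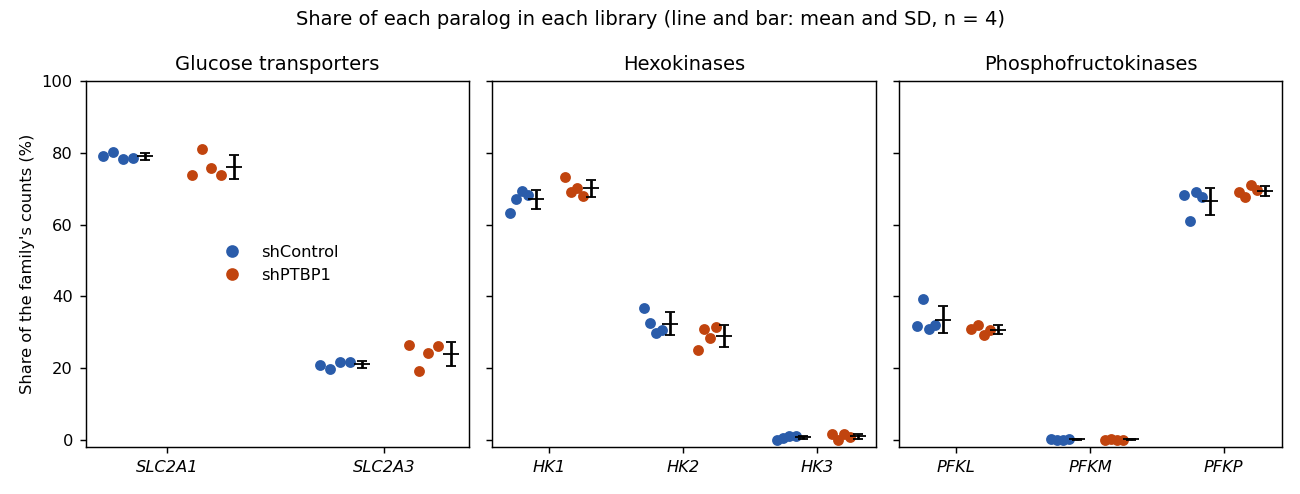
Share of each paralog in the counts of its family (%), with a point for each library, blue for shControl and red for shPTBP1, and the mean and SD (n = 4) beside them. SLC2A1, HK1 and PFKP lead their families in all 8 libraries, and the groups overlap for all 8 shares.

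Long reads also show from which isoform the counts of a gene came. SLC2A1 stood apart from the other members here. Transcripts annotated as protein-coding held 43.9% ± 4.25 of its counts after shPTBP1 and 48.1% ± 6.70 in shControl (SD, n = 4), while the other 7 members with at least 10 counts in every library had means of 88.6% to 100%. Over 7252 protein-coding genes tested the median was 99.4%, and 344 (4.74%) had a lower share than the 46.6% of SLC2A1 over all 8 libraries. The coding isoform SLC2A1-203 had 16, 24, 19 and 16 counts after shPTBP1 and 39, 34, 25 and 33 in shControl. SLC2A1-215 and SLC2A1-211, which keep an intron, held 27.5% ± 8.19 and 9.54% ± 6.98 of the gene's counts after shPTBP1 and 21.9% ± 3.45 and 9.50% ± 0.93 in shControl. Both are annotated to begin inside the gene, at positions 42931769 and 42929499, while SLC2A1-203 begins at 42958868. Whether reads that were cut short were assigned to them was not tested. SLC2A1-211 had none of the 42 counts in shPTBP1 replicate 1, which allows up to 7.14%. SLC2A1-208, annotated for nonsense-mediated decay, the pathway that degrades RNA with an early stop codon, held 17.3% ± 4.02 and 19.0% ± 6.62.

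The coding counts of SLC2A1 amounted to 12.2 ± 2.68 normalized CPM after shPTBP1 and 21.7 ± 3.58 in shControl, without overlap (exact permutation test, p = 0.0286). Those on intron-retaining transcripts were 10.7 ± 1.25 and 14.7 ± 0.75, also without overlap (p = 0.0286 by the same exact test). Those on SLC2A1-208 were 4.87 ± 1.56 and 8.63 ± 3.37, with overlap (exact permutation test, p = 0.143). With protein-coding transcripts alone, summed for all genes, the log2 fold change of SLC2A1 was -0.82 (edgeR adjusted p = 0.0339). The lower level was thus found on coding and on intron-retaining transcripts, and the share of coding counts was not shown to differ (exact permutation test, p = 0.314).

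ADPGK had a pair of coding isoforms. ADPGK-201 held 74.4, 77.6, 77.4 and 64.4% of the gene's counts after shPTBP1 and 77.6, 81.5, 80.4 and 72.0% in shControl. ADPGK-202 held 15.2% ± 4.89 and 12.6% ± 3.48, and ADPGK-210, annotated for nonsense-mediated decay, 7.53% ± 2.98 and 7.40% ± 1.68 (SD, n = 4). The groups overlapped for each of them. Inside the coding sequence ADPGK-201 and ADPGK-202 use neighbouring splice acceptors of the last exon, 3 bases apart. The site is shown because the coding sequences of the isoforms differ there by 3 bases, chr15:72752893-72752895 on the minus strand (GRCh38), which stand in capitals within chr15:72752877-72752917 and are exonic only in ADPGK-202.
ADPGK acceptors: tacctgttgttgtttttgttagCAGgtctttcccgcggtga

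The split between these isoforms is uncertain where a nanopore read has an error at those bases. The sum of both was 47.6 ± 6.82 normalized CPM after shPTBP1 and 87.1 ± 8.02 in shControl, without overlap (exact permutation test, p = 0.0286).

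The other members had 1 dominant coding isoform each. HK1-202, GPI-201, PFKL-201, PFKP-203, SLC2A3-201 and HK2-201 held means of 89.4% to 99.7% in either group. GPI-201 was the only one of 14 isoforms with at least 5% of its gene for which the groups did not overlap. It held 91.8, 92.0, 90.9 and 91.2% after shPTBP1 and 90.8, 87.7, 89.3 and 89.9% in shControl. Its difference of 2.05 percentage points had an unadjusted p of 0.0286 and an adjusted p of 0.400 over the 14 isoforms by exact permutation tests. By diffSpliceDGE the relative log2 fold change of GPI-201 was 0.013 (unadjusted p = 0.877). How many isoforms of all genes had groups without overlap was not counted. GPI-219, which has no defined coding sequence, held 4.23% ± 1.33 and 5.44% ± 0.64.

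By diffSpliceDGE, none of the 6 member isoforms that could be tested (2 each of GPI, SLC2A1 and ADPGK) was called, and 0 had an unadjusted p under 0.05. All had an adjusted p of 1, and limma's diffSplice called 0 as well. In the background, 61 of 5464 isoforms tested (1.12%) were called, which required an adjusted p under 0.05 and a mean share that moved by 10 percentage points or more. The largest difference of a mean share among the 14 isoforms was 5.52 percentage points, for SLC2A1-215.

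**Figure D4:**
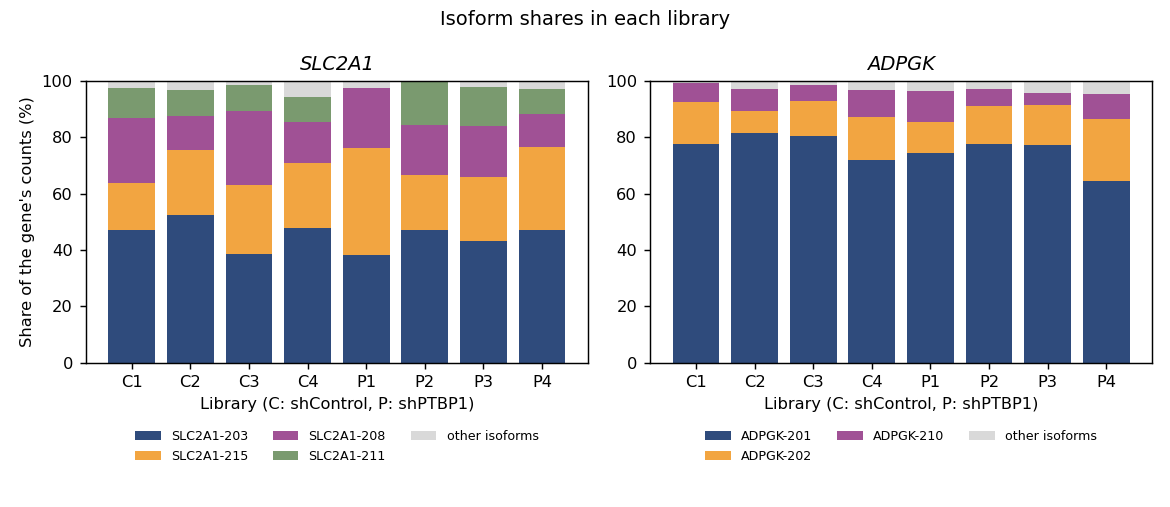
Share of each isoform in the counts of SLC2A1 and ADPGK (%), stacked to 100% for each library, C1 to C4 for shControl and P1 to P4 for shPTBP1. SLC2A1-203 makes up 38.1% to 52.3% of SLC2A1 and ADPGK-201 64.4% to 81.5% of ADPGK, with overlapping groups in both.

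Other genes of the pathway were taken from lists written from general knowledge. Of 43 genes around the same steps, 19 could be tested, and 1 was called lower and 0 higher. The called gene was PFKFB4, which makes and breaks the phosphofructokinase activator fructose 2,6-bisphosphate. Its normalized CPM was 22.1, 25.8, 18.4 and 15.4 after shPTBP1 and 61.4, 33.1, 34.0 and 31.4 in shControl, where replicate 1 was far above the rest. By edgeR the fold change was -0.97 on the log2 scale (SE 0.24, adjusted p = 0.0317). Of the 5 genes of this kind PFKFB3 was the other one tested, with -0.45 (adjusted p = 0.418 by edgeR). The 3 tested of 14 other listed transporter genes, SLC2A5, SLC2A9 and SLC2A13, had a median log2 fold change of -0.28 and no call. Whether they carry glucose in these cells was not tested. SLC2A9, known for carrying urate as well as hexoses, had a mean of 37.7 normalized CPM after shPTBP1 and 37.0 in shControl, a log2 fold change of 0.03. SLC2A5 had -0.28 (edgeR adjusted p = 0.535). SLC2A13 had -1.77 (edgeR adjusted p = 0.356), with 0, 0, 0 and 15 counts after shPTBP1 and 18, 0, 19 and 16 in shControl. By the same test the 6 tested genes that lead hexose phosphates elsewhere, such as to glycogen, had a median of 0.01 and no call. They ran from -0.27 for the glycogen synthase GYS1 (edgeR adjusted p = 0.259) to 0.23 for GFPT1 (edgeR adjusted p = 0.660). The 6 tested regulators of glucose uptake and sensing had a median of 0.04 and no call. Among them HIF1A had a log2 fold change of 0.03 and TXNIP, which restrains glucose uptake, of 0.04, while MLXIP had -1.04 (edgeR adjusted p = 0.0978). The 2 tested genes of the reverse reactions had a median of 0.07 and no call.

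In lower glycolysis, 4 of 12 tested genes of a list of 15 were called lower and 0 higher, with a median log2 fold change of -0.14. They were the aldolase ALDOC (-0.46, edgeR adjusted p = 0.0167), the enolase ENO2 (-0.94, adjusted p = 0.0421), the pyruvate kinase PKM (-0.62, adjusted p = 2.20e-05) and the lactate dehydrogenase LDHA (-0.28, adjusted p = 0.0490). Of the 12 tested genes, 11 had a log2 fold change below 0. Over all 7597 genes tested, 242 (3.19%) were called lower and 3802 had a log2 fold change below 0. The members' median of -0.51 stands beside the values of lower glycolysis as a description.

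**Figure D5:**
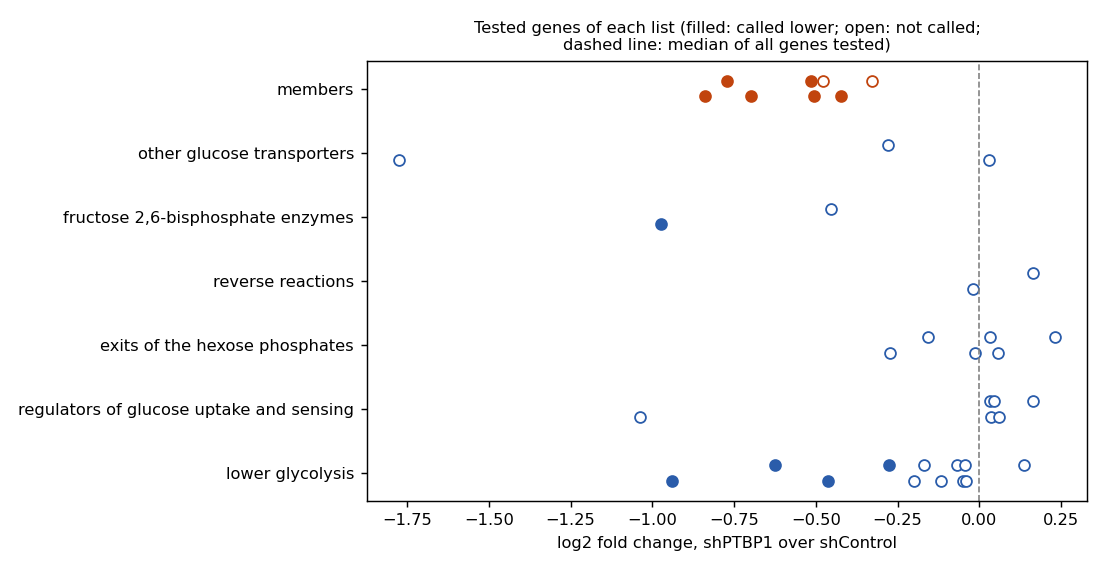
log2 fold change, shPTBP1 over shControl, of each tested gene of the 10 members (red) and of the pathway lists (blue). Filled points were called lower, open points were not called, and the dashed line is the median of all genes tested (-0.0001). All 8 tested members lie left of the line, and the 6 genes that lead hexose phosphates elsewhere lie around it.

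The genes whose log2 CPM followed that of SLC2A1 most closely over the 8 libraries were DCTN5, ZP3 and PPM1H, each with a Pearson r of 0.96. For HK2 they were TULP3 and EPB41L2 (r = 0.99 for each) and C6orf89 (r = 0.96). These were the 3 highest among all genes tested for each member, and the points share the group difference and the libraries. PPM1H had 69.1 to 79.7 normalized CPM after shPTBP1 and 95.5 to 110.6 in shControl, and EPB41L2 had 106 to 114.5 and 123 to 148.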

How the data were processed

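RNA of MOLM-13 cells was measured in 4 shPTBP1 and 4 shControl libraries. The authors prepared nanopore cDNA libraries, mapped the reads with minimap2 (hg38), dropped reads of low mapping quality and deposited StringTie counts per transcript, which are raw and whole. Tool versions and the annotation release behind the counts are not given in the sources used here. The authors' second table, which holds the same counts scaled per 1000000, was not used. Groups came from the sample labels.

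Transcripts were assigned to genes through GENCODE version 44 by their unversioned Ensembl identifiers (252562 of 254070 were found). Those not found held at most 0.115% of a library. The limit set for a count of 0 was 3 counts. It reflects counting error alone, as copies of an amplified cDNA are not independent.

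Gene sums were tested with edgeR 4.0.16 (TMM, filterByExpr with a minimum count of 10, quasi-likelihood test, group as the only term) with calls made below 0.05 after Benjamini-Hochberg adjustment. Isoform usage was tested with diffSpliceDGE on transcripts that passed the same filter. Shares and step sums were compared by exact two-sided permutation tests over libraries. Alternatives were DESeq2 1.42.0, limma 3.58.1 (voom and diffSplice), DESeq2's size factors, other filters, protein-coding transcripts alone, counts per kilobase, the replicate number as a block and leaving out each library. The tests were first checked on simulated data. Promoter windows came from RefSeq (GRCh38.p14) and other sequences from GRCh38. R 4.3.3 and Python 3.11.15 were used.

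The members and the lists were chosen with earlier results of these data known. The genes named are all members, PTBP1 and PTBP2, the called genes of the lists, isoforms with at least 5% of a member, and the 3 genes most like SLC2A1 and HK2. PFKFB3, SLC2A5, SLC2A9, SLC2A13, GYS1, GFPT1, HIF1A, TXNIP, MLXIP, SLC2A14 and single markers were named after their values were seen. A few genes and sequences are not reported here.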

Additional observations from a re-analysis of the deposited data

Results flagged for a closer look

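In each group of 4 libraries the gap between an extreme library and its nearest neighbour was divided by the range of the group, and 5 of 60 groups passed Dixon's critical value, where chance gives about 1 in 20. HK1 in shPTBP1 replicate 1 lay at 83.5 normalized CPM, and the other shPTBP1 libraries at 58.8 to 61.9. For the hexokinase sum the same library lay at 114 normalized CPM and the others at 85.2 to 88.2. In shControl replicate 2, PFKL held 39.1% of the phosphofructokinase counts and 31.0% to 32.1% in the other shControl libraries, and PFKP, its complement, held 60.9% against 67.7% to 69.0%. SLC2A3-201 held 94.4% of the SLC2A3 counts in shControl replicate 3 and 100% in the other shControl libraries, a difference of a single count among 18.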

How the results depend on the processing

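All 8 tested members had a negative log2 fold change under every alternative that gave one. DESeq2, limma-voom, DESeq2's size factors, protein-coding transcripts alone and the replicate block each called the same 6 members, and no filter on low counts or a mean of at least 50 counts called PFKP as well. DESeq2 gave no adjusted p for SLC2A3. With 1 library left out, 2 to 7 members were called lower and 0 higher, while calls over all genes were 184 to 358 in place of 421. With the replicate number as a block, adjusted p values of the 6 members were 0.00536 to 0.0421, and it changed no call. The numbers were not treated as pairs, since correlations of same-numbered libraries were -0.0328 to 0.00889, and the sign-flip tests over 4 numbers cannot go below p = 0.125. Of the log2 fold changes of single members under the alternatives, 16 lost a call and 3 gained one. No isoform was called in any setting. The hexokinase sum per kilobase differed by -0.56 on the log2 scale (exact permutation test, p = 0.0571). With 1 library left out the sums of hexokinases, GPI and phosphofructokinases kept groups without overlap. They differed by -0.68 to -0.52, -0.49 to -0.37 and -0.47 to -0.35, with exact permutation p values of 0.0286 to 0.0571. The cause was not tested. Depth limits SLC2A3, HK3, PFKM and the isoforms of SLC2A1 most, with 34 to 83 counts of SLC2A1 per library.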
